A study of Mus musculus with 2 samples.

Results

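The genes described here are 10 genes that early B cells of the mouse use to build and test an antibody heavy chain: Vpreb1, Vpreb2, Vpreb3, Igll1, Rag1, Rag2, Dntt, Ebf1, Pax5 and Il7r. They were taken by symbol from a list of early B cell genes, and all 10 were found among the 32286 features of the matrices. Their levels were followed across B cell stages and the other classes of bone marrow cells in 2 droplet-based single-cell libraries of transcript 3′ ends, 1 per group. The control library came from hematopoietic cells of Mx1Cre+/-;Rosa26+/+ marrow, and the second, called the MYC library, from Mx1Cre+/-;Rosa26LSL-MYC/LSL-MYC marrow, so both carried 1 Cre allele. Mx1Cre is a Cre recombinase under an interferon-inducible promoter, active in many blood cells and not in B cells alone, and in the LSL-MYC allele a stop cassette keeps the MYC transgene silent until Cre cuts it out. The labels give neither the number, age or sex of the mice nor how or when Cre was induced. The stated purpose was to compare expression in marrow cells when stem cells overexpress MYC, and the level of MYC in stem cells was not analysed here.

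A developing B cell cuts and rejoins its immunoglobulin heavy chain gene segments with the recombinase formed by RAG1 and RAG2, while terminal transferase, the product of Dntt, adds untemplated bases at the joints. The new heavy chain then pairs with a surrogate light chain made of VPREB and lambda-5 proteins to form the pre-B cell receptor, which drives a burst of division before the surrogate chain is switched off and the true light chain genes are rearranged. EBF1 and PAX5 are transcription factors that commit cells to the B lineage, and the interleukin-7 receptor carries the growth signal that mouse B cell progenitors depend on.

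Depth was 131884603 transcripts, counted as unique molecular identifiers (UMIs), over 17073 control barcodes, and 110012176 over 14496 barcodes of the MYC library. Of these, 14903 and 12540 cells passed the filters, with medians of 5343 and 6016 UMIs; 97 deposited barcodes, 79 of them kept, occurred in both libraries. The added feature named MYC had 0 UMIs in the kept control cells and 289 in those of the MYC library; which sequence it stands for is not given in the sources used here. Levels are UMIs of a gene per 1000000 UMIs of the same cells (CPM), with exact 95% intervals for counting error only. Each genotype has 1 library, so differences are between 2 libraries and carry no test. A gene was called lower or higher at a change of at least 2-fold whose counting interval excluded no change, among genes with at least 50 UMIs.

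Vpreb1 and Vpreb2, the near-identical genes of the first surrogate light chain component, and Igll1, which encodes lambda-5, lie on chromosome 16 of GRCm38. Igll1 (16860671 to 16863985, minus strand) and Vpreb1 (16868403 to 16870843, minus strand) are separated by 4417 bases, and Vpreb2 (17980428 to 17981273, plus strand) lies farther along. The coding sequences of Vpreb1 and Vpreb2, each 426 bases, matched at 417 positions (97.9%). In the last 500 bases of their GENCODE vM21 transcripts, which 3′ libraries read, 33.9% of 50-base windows and 16.3% of 91-base windows of either gene also occurred in the other, so the split of reads between them is uncertain. The stretch of coding bases 298 to 387 is shown because it holds 5 of the 9 differences, which are in capitals.
Vpreb1: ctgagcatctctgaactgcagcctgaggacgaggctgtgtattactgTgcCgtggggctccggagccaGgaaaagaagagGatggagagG
Vpreb2: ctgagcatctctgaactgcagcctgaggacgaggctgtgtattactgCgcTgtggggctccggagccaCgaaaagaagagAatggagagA

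The 250 bases before the RefSeq transcription start (GRCm38.p6) are shown for Vpreb1 and Igll1, which were mostly detected in the same cells, and for Vpreb3, which was also high where these were nearly absent. Capitals mark matches on either strand to the EBF1 core motif CCCNNGGG or to the E-box CANNTG, the motif of the E2A family. The EBF1 core occurred in 11.8% of 32851 promoter windows of this length and the E-box in 66.2%.
Vpreb1 (chr16:16869256-16869505, minus strand): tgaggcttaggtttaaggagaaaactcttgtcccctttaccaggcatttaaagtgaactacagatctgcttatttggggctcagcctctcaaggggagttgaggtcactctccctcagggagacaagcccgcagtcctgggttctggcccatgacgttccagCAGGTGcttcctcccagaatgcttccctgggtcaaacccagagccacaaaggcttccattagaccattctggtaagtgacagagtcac
Igll1 (chr16:16863986-16864235, minus strand): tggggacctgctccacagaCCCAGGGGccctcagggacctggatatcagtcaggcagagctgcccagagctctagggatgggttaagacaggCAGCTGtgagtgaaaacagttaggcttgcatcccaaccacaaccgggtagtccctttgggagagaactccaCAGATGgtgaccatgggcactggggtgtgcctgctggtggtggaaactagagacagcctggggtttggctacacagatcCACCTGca
Vpreb3 (chr10:75948050-75948299, plus strand): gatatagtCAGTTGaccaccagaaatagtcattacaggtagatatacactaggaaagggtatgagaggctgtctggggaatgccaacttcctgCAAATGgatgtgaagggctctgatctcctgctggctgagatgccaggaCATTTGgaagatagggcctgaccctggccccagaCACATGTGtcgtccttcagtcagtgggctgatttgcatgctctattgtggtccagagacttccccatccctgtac
Igll1 had 1 EBF1 core match, 231 bases before the start, and 3 E-boxes. Vpreb1 had 1 E-box and no EBF1 core match, and Vpreb3 had 5 E-boxes, 2 of which overlap, and no EBF1 core match. A match of letters is not a binding site, and its absence from this window says nothing of the factor. Rag1 (101638282 to 101649501, minus strand) and Rag2 (101624718 to 101632529, plus strand) are neighbours on chromosome 2, 5752 bases apart. The other members are protein-coding genes on chromosomes of their own: Vpreb3 on 10 (75943057 to 75949657), Dntt on 19 (41029275 to 41059525), Ebf1 on 11 (44617317 to 45008091), Pax5 on 4 (44524757 to 44710487) and Il7r on 15 (9505788 to 9530176).

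In the control, B progenitor-like cells were the main holders of the surrogate light chain and recombinase genes. These were 435 cells, named from 18 markers that exclude the 10 genes; in each library 15 of the 18 were found in at least 10% of the cells of the class and 0 were without a UMI. They held 84.2% of the Vpreb1 UMIs, 87.6% of Vpreb2, 90.9% of Igll1, 81.1% of Vpreb3, 88.9% of Rag1 and 85.5% of Rag2. Ebf1 was shared with mature B-like cells (66.0% against 23.2%), and Pax5 more so (50.3% against 40.6%). In all, 8 of the 10 genes had most of their control UMIs in B progenitor-like cells, Pax5 only just so (48.5% to 52.0%); the count was 7 under 6 of the 7 alternatives run. The exceptions were Il7r, with 45.2% there, 21% in T or NK-like cells and 17.1% in plasmacytoid dendritic-like cells, and Dntt, with 18.6% there, 24.4% in plasmacytoid dendritic-like cells and 47.2% in stem or multipotent progenitor-like cells.

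**Figure D1:**
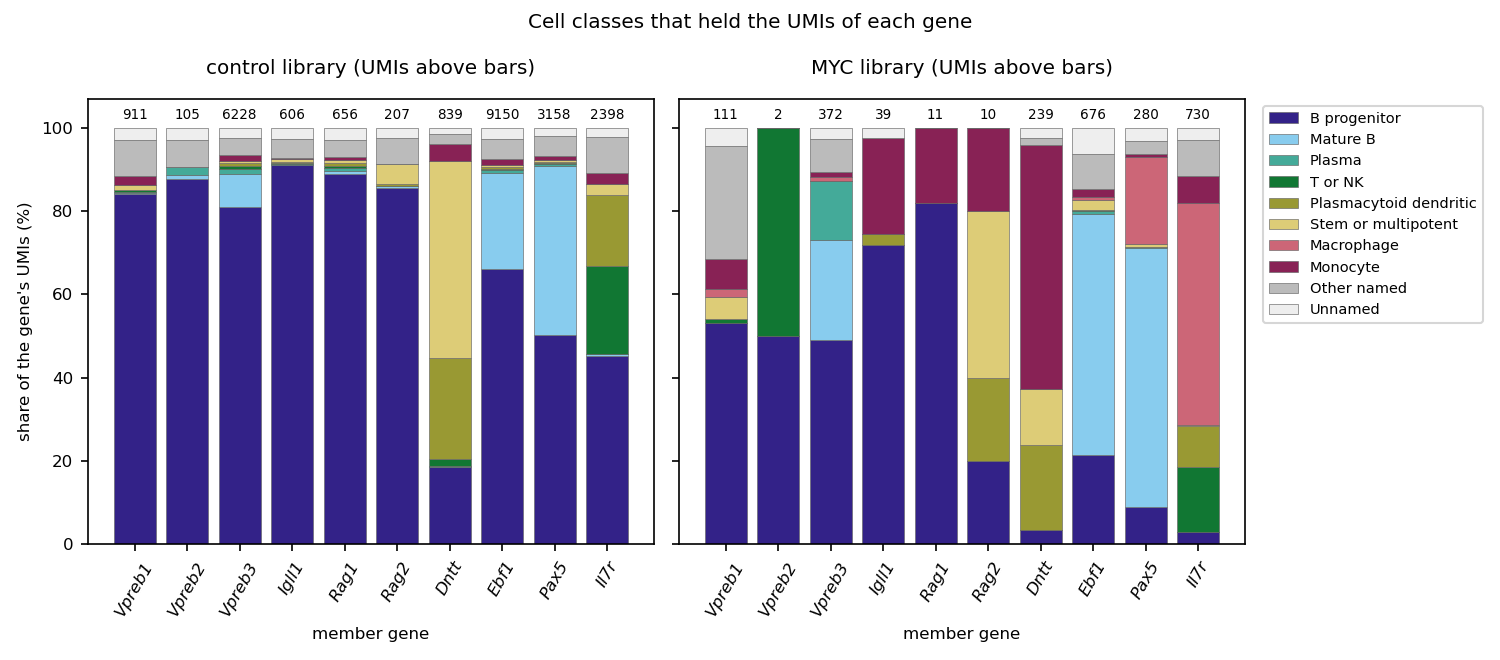
Share of each gene's UMIs (percent, vertical axis) by cell class, for each of the 10 genes and both libraries, with the UMI totals above the bars. B progenitor-like cells held 84.2% of Vpreb1 UMIs in the control, while 53.3% of the MYC library's Il7r UMIs lay in macrophage-like cells; of its 140 Dntt UMIs in monocyte-like cells, 90 came from 1 cell.

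Sub-clusters of the control's B lineage, named here by a pair of leading genes, differed by orders of magnitude in the surrogate light chain genes. They are given in an order set by hand from their leading genes after the data were seen. Scored on the pro-B and pre-B marker lists, Erg-Lef1 came closest to pre-B and Il2ra-Sox4 to pro-B, the reverse of that order, so it is not a measured course of development. Uhrf1-Ccne2 scored closest to plasma cells and was left unnamed, and its 72 control cells included 11 mature B-like and 4 plasma-like cells. The smallest, Erg-Lef1, had only 20 control cells. Its Vpreb1 level was 2527 CPM, against 215 in the Uhrf1-Ccne2 sub-cluster and 135 in the Cenpf-Ube2c sub-cluster, whose leading genes serve DNA replication and mitosis. In the Il2ra-Sox4 sub-cluster, Il2ra being a marker of small pre-B cells, Vpreb1 was at 4.09 CPM, from 3 UMIs in 3 of 180 cells. Igll1 had the same order of levels over these sub-clusters, at 1542, 168, 103 and 1.36 CPM, the last value from 1 UMI. Vpreb2 was at 317, 29.3 and 15 CPM and at 0 UMIs in Il2ra-Sox4. For all 3 genes the intervals of the other 3 sub-clusters lay above that of Il2ra-Sox4, most narrowly for Vpreb2, whose interval in Cenpf-Ube2c (9.39 to 22.7 CPM) began over the limit of 5.03 CPM in Il2ra-Sox4.

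Vpreb3, whose product binds nascent immunoglobulin chains inside the cell and is not part of the surface receptor, did not follow its namesakes. It was at 2735 CPM in Erg-Lef1, 728 in Uhrf1-Ccne2, 1366 in Cenpf-Ube2c and 1788 in Il2ra-Sox4, and then at 79.2 in the Fcer2a-Cr2 sub-cluster of mature B-like cells and 15.5 CPM in the plasma cell sub-cluster Jchain-Derl3. In B progenitor-like cells 416 of 435 cells had a Vpreb3 UMI, against 89 with Vpreb1. Over 20 classes and sub-clusters of the control with at least 50 cells, the gene whose log2 profile was most like that of Vpreb3 was Akap12 (Pearson r = 0.98), followed by Cpm (0.96) and Ebf1 (0.94). The genes most like Vpreb1 were Vpreb2 (0.94), Igll1 (0.93) and Smim41 (0.90), and those most like Igll1 were Vpreb2 (0.94), Vpreb1 (0.93) and Enpep (0.92). All points of these profiles come from the same library, and Erg-Lef1 was too small to be among them, so the coefficients are descriptions.

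Rag1 was high in Erg-Lef1 and Il2ra-Sox4 and lower in the sub-clusters with leading genes of replication and mitosis, whereas Rag2 differed less. Rag1 was at 602 CPM (453 to 783) in Erg-Lef1, 17.8 CPM (10.9 to 27.5) in Uhrf1-Ccne2 and 63.3 CPM (51.1 to 77.6) in Cenpf-Ube2c, and at 540 CPM (488 to 596) in Il2ra-Sox4. Rag2 was at 164, 19.6, 49.0 and 66.8 CPM in the same 4 sub-clusters. The Rag2 intervals of Cenpf-Ube2c (38.4 to 61.7) and Il2ra-Sox4 (49.5 to 88.4) overlapped, unlike those of Rag1. In Uhrf1-Ccne2, however, Rag2 at 19.6 CPM lay under the Il2ra-Sox4 interval, as Rag1 did. Dntt was concentrated in Erg-Lef1, at 1138 CPM with a UMI in 18 of 20 cells, against 3.56 CPM in Uhrf1-Ccne2 and 23.1 CPM in Cenpf-Ube2c, where 25 of its 34 UMIs came from 1 cell. The genes most like Rag1 in profile were Cacna2d1 (r = 0.93), Rapgefl1 (0.93) and Capsl (0.92), and those most like Rag2 were Tnfrsf19 (0.95), Smtnl2 (0.94) and Mei4 (0.94). For Dntt they were Fam171a2 (0.80), Gpc2 (0.77) and Plxna2 (0.75).

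**Figure D2:**
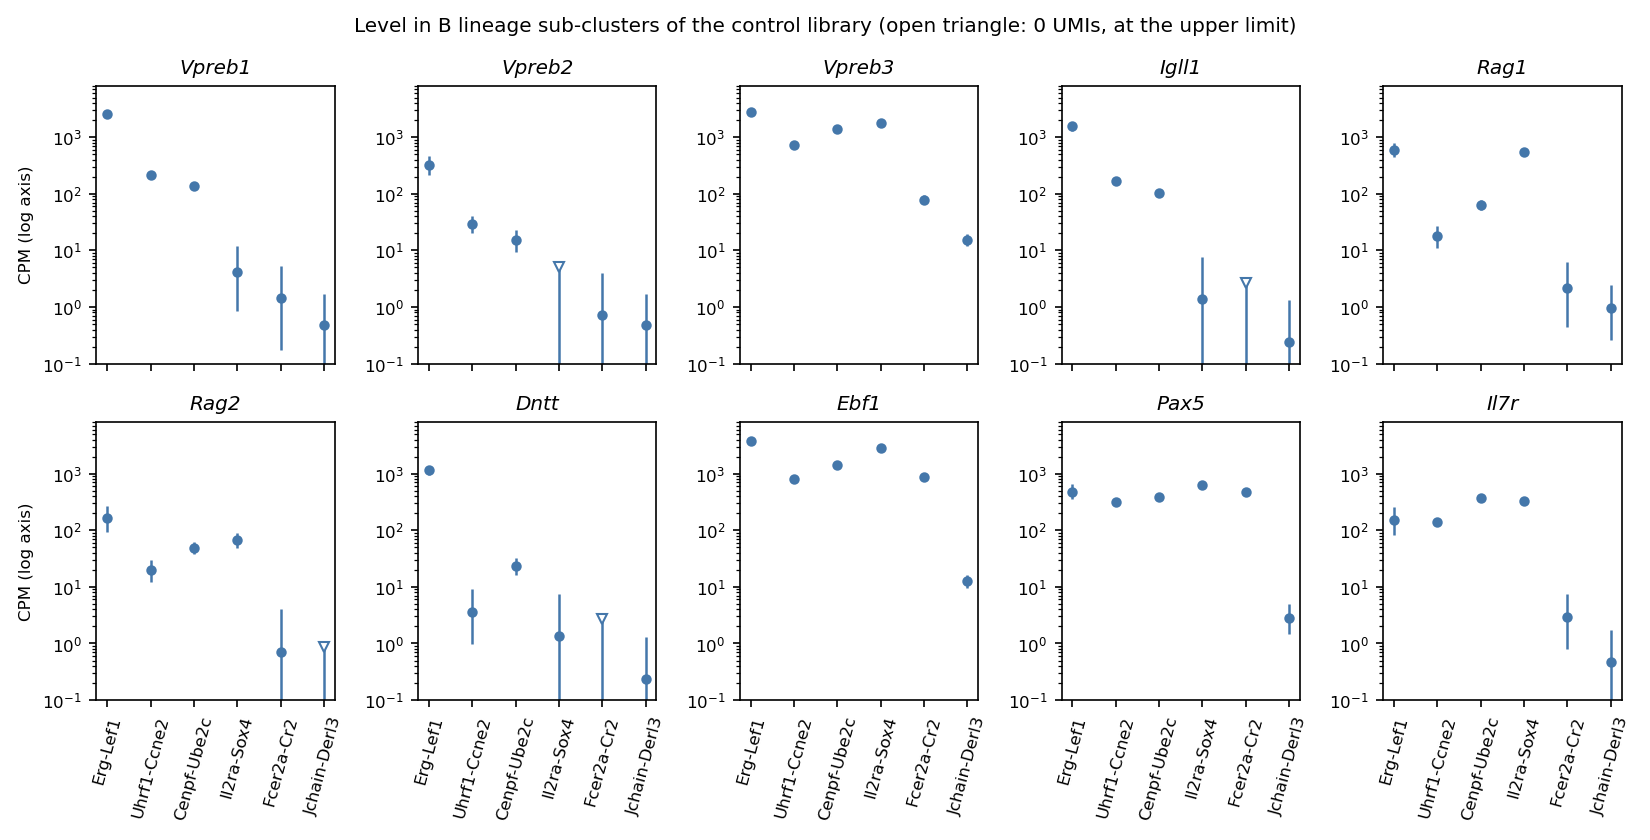
Level of each gene (CPM, log axis) in 6 B lineage sub-clusters of the control library, in an order set by hand from their leading genes; points are levels, lines 95% counting intervals, and open triangles the upper limit at 0 UMIs. Vpreb1 and Igll1 are near the floor in Il2ra-Sox4, where Rag1, Vpreb3, Ebf1 and Pax5 are high.

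The transcription factor genes were found in all progenitor sub-clusters named here and in mature B-like cells. Ebf1 was at 3741 CPM in Erg-Lef1, 806 in Uhrf1-Ccne2, 1445 in Cenpf-Ube2c, 2832 in Il2ra-Sox4 and 879 in Fcer2a-Cr2. Pax5 kept between 318 and 618 CPM over the same 5 sub-clusters, with its highest level in Il2ra-Sox4. In plasma cells of Jchain-Derl3, both were low, with Ebf1 at 12.6 and Pax5 at 2.86 CPM. Every one of the 381 control B progenitor-like cells with a Pax5 UMI also had an Ebf1 UMI, but so did 427 of all 435 cells of the class. Genes with a profile much like that of Ebf1 included Chst3 (r = 0.97) and Cpm (0.96), and those like Pax5 included Blk (0.96), a kinase gene of B cells, and Ebf1 (0.95). Il7r was at 153, 138, 378 and 322 CPM in the first 4 sub-clusters and at 2.88 CPM in Fcer2a-Cr2. Its 3 most similar genes, Kansl1l (0.84), Gna11 (0.82) and Gpatch2 (0.81), are not B lineage markers.

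A further 64 control cells formed a B lineage sub-cluster led by the neutrophil genes S100a9 and Retnlg, in which Ebf1 was at 390 CPM and Vpreb1 at 73.2 CPM. Its median of 17919.5 UMIs per cell compares with 5212.5 over the control's B lineage and 21226 in control plasma-like cells. Of the 64 cells, 27 were plasma-like and 23 were among the B progenitor-like cells. Whether these are cells carrying neutrophil RNA or doublets was not tested.

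Within single control B progenitor-like cells, the components of the surrogate light chain were found together. Of 89 cells with a Vpreb1 UMI and 79 with an Igll1 UMI, 69 had both, and 32 of the 33 cells with Vpreb2 had Vpreb1. Rag1 and Rag2, in 206 and 116 cells, were found together in 73, and Vpreb1 with Rag1 in 30. Of 26 cells with Dntt, 23 had Vpreb1. Depth bears on such shares: after each cell was thinned to 2000 UMIs, the share with a UMI was 12.6% in place of 20.5% for Vpreb1, 31.9% in place of 47.4% for Rag1 and 92.8% in place of 98.2% for Ebf1. As background, control erythroid-like cells, with a median of 13693 UMIs against 5346, had a Vpreb1 UMI in 0.455% of cells, a Rag1 UMI in 0.727% and an Ebf1 UMI in 5.18%.

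Rag1, but not Rag2, was lower in dividing B progenitor-like cells of the control. Cells with at least 1% of their UMIs in a list of 26 proliferation genes were called dividing, which applied to 103 of the 435 B progenitor-like cells. The sub-cluster Uhrf1-Ccne2, led by replication genes, had a median of only 0.572% in the list, so many of its cells counted as not dividing. Rag2 and Il7r were lowest there among the progenitor sub-clusters named above, and its part in these contrasts was not tested. Rag1 was at 60.7 CPM in dividing cells and 219 CPM in the other 332, a log2 difference of -1.85 (-2.21 to -1.51). Rag2 was at 53.1 against 46.6 CPM, a log2 difference of 0.19 (-0.27 to 0.64). The contrast between the genes was not itself tested. The share of cells with a Rag1 UMI was 40.8% against 49.4% as sequenced, and 12.7% against 38.4% after thinning to 2000 UMIs, since dividing cells had a median of 10932 UMIs against 4741.5.

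Il7r went the other way, with 390 CPM in dividing and 248 CPM in other cells (log2 difference 0.65, 0.48 to 0.83). Vpreb1 (149 against 249 CPM) and Igll1 (119 against 171 CPM) were lower in dividing cells by less than 2-fold, with log2 differences of -0.74 and -0.53. Of the 10 genes, 1 was called lower, where 3.9% of all 6511 genes were, and 0 were called higher, where 4.29% were. At a threshold of 2% in the list, 1 gene was called higher and 2 lower; 2 were also called lower at a threshold of 0.5% or a mitochondrial limit of 5%, and 3 with means over cells. All these cells come from 1 library and are not replicates.

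All 10 genes were called lower in the kept marrow cells of the MYC library, where 9.45% of all 14164 genes were called lower and 2.82% higher, with a median log2 ratio over all genes of -0.21. Vpreb1 was at 7.49 CPM in control cells (911 UMIs) and 1.09 CPM in those of the MYC library (111 UMIs), which is a log2 ratio of -2.78 (-3.08 to -2.49). Igll1 went from 4.98 to 0.383 CPM (-3.70) and Vpreb3 from 51.2 to 3.65 CPM (-3.81). For Vpreb2, 105 control UMIs compare with 2 of the MYC library (-5.46, -8.52 to -3.57). The split of reads between Vpreb1 and Vpreb2 is uncertain in both libraries.

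Rag1 was at 5.39 CPM in control cells (656 UMIs) and 49.9-fold lower, at 0.108 CPM (11 UMIs), in the MYC library, a log2 difference of -5.64 (-6.65 to -4.79). Rag2 went from 1.70 to 0.0982 CPM (-4.11, -5.20 to -3.21). Ebf1 went from 75.2 to 6.64 CPM (-3.50) and Pax5 from 26.0 to 2.75 CPM (-3.24). The smallest differences were those of the genes also used outside the B lineage, Dntt from 6.90 to 2.35 CPM (-1.55) and Il7r from 19.7 to 7.17 CPM (-1.46). Over the B lineage as a whole, with 1240 and 245 cells, all 10 were again called lower, where 19.6% of 9594 genes were lower and 3.36% higher; the mix of stages differs between the libraries there.

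**Figure D3:**
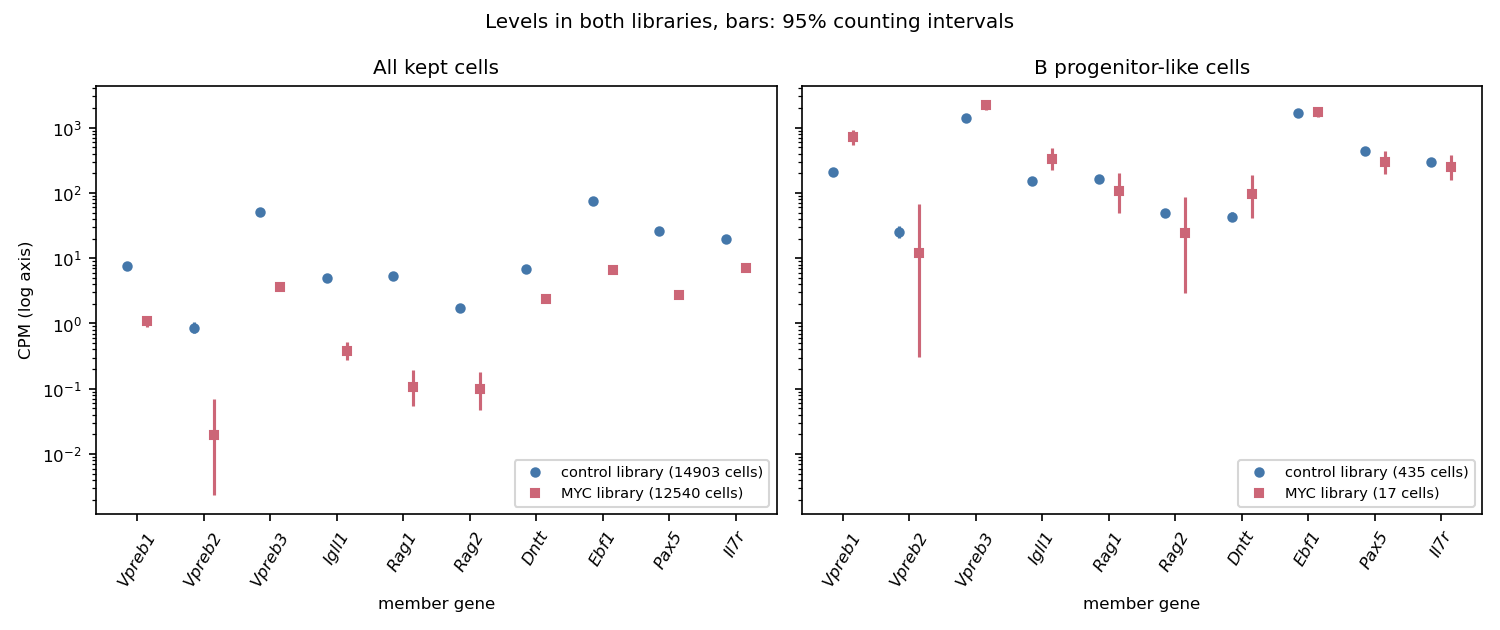
Level of each gene (CPM, log axis) in both libraries, over all kept cells (left) and in B progenitor-like cells (right), with bars for 95% counting intervals. All 10 genes are lower in the MYC library on the left, while on the right the 17 cells of the MYC library give levels whose intervals overlap the control's for 7 genes and lie above them for Vpreb1, Vpreb3 and Igll1, though the Vpreb3 ratio is 0.05 (-0.19 to 0.27) when each cell is classified by its own markers.

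B progenitor-like cells themselves were few in the MYC library: 17 of 12540 kept cells (0.136%, 0.0790 to 0.217) against 435 of 14903 (2.92%, 2.65 to 3.20), a difference of -2.78 percentage points (-3.07 to -2.51). The progenitor sub-clusters were thin: Erg-Lef1 had 1 cell against 20, Uhrf1-Ccne2 3 against 72, Cenpf-Ube2c 2 against 115 and Il2ra-Sox4 5 against 180. In Uhrf1-Ccne2, 1 of the 3 cells and 4 of the 72 were plasma-like, and 11 of the 72 were mature B-like. The share of cells in a class depends on all other classes in the same library, and how many mice each library holds is not stated.

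Within the B progenitor-like class, the remaining cells of the MYC library carried these transcripts. None of the 10 genes was called lower, where 1.97% of 6585 genes were, and 2 were called higher, where 3.9% were. These counts depended on how the class was built: with each cell classified by its own markers Pax5 (-1.17, -1.85 to -0.56) and Rag1 (-1.09, -2.23 to -0.16) were called lower, and with means over cells Rag2 was (-2.63, -5.69 to -0.76). Vpreb1 was at 706 CPM (59 UMIs in 7 of 17 cells) against 212 CPM (log2 ratio 1.74, 1.33 to 2.12), and Igll1 at 335 against 152 CPM (1.14, 0.53 to 1.68). A single cell held 26 of the 59 Vpreb1 UMIs, and a single cell held 12 of the 28 Igll1 UMIs. Without the richest cell of each library the ratio was 1.18 (0.63 to 1.68) for Vpreb1 and 0.61 (-0.20 to 1.33) for Igll1, which was then no longer called. Igll1 was also under 2-fold with each cell classified by its own markers (0.61) and with the 10 genes allowed among the variable genes (0.90). The 2 dividing cells held 29 of the 59 Vpreb1 and 14 of the 28 Igll1 UMIs. Among cells that were not dividing, 15 in the MYC library and 332 in the control, neither gene was called, with Vpreb1 at 426 against 249 CPM (0.78, 0.20 to 1.31) and Igll1 at 199 against 171 CPM (0.21, -0.67 to 0.98). The 7 cells with Vpreb1 were the same 7 that had Igll1.

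Vpreb3 was at 2179 CPM in the MYC library's B progenitor-like cells and 1396 CPM in the control's (0.64, 0.42 to 0.86), but the ratio was 0.05 (-0.19 to 0.27) when each cell was classified by its own markers. Ebf1 was at 1736 and 1671 CPM (0.05, -0.19 to 0.29), and its ratio was -0.44 (-0.69 to -0.20) under that classification. Pax5 was at 299 against 439 CPM (-0.55, -1.18 to 0.01) and Il7r at 251 against 300 CPM (-0.25, -0.95 to 0.37). Rag1 had 9 UMIs, at 108 against 161 CPM (-0.58, -1.72 to 0.35). Rag2 had 2 UMIs (-1.03, -4.09 to 0.84), Vpreb2 had 1 (-1.09, -6.41 to 1.43) and Dntt had 8, 7 of them in 1 cell (1.15, -0.09 to 2.16). The Dntt ratio was -1.38 without the richest cell of each library and -0.18 with means over cells. For these 4 genes the intervals left a 2-fold difference possible in at least 1 direction. The sub-clusters within the class were not in the same proportions in both libraries, with 2 of 17 cells in Cenpf-Ube2c against 114 of 435; their part in the ratios was not tested. Of genes of other cell types in these cells, the neutrophil elastase gene Elane was at 38.7 CPM in the control and 23.9 CPM (2 UMIs) in the MYC library, and the T cell gene Cd3e had 1 and 0 UMIs.

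Mature B-like cells, of which the control had 556 and the MYC library 143, had transcripts of Ebf1, Pax5 and Vpreb3. Giving the control first, Ebf1 was at 713 and 575 CPM (-0.31, -0.47 to -0.16), Pax5 at 431 and 256 CPM (-0.75, -0.99 to -0.53) and Vpreb3 at 165 and 132 CPM (-0.32, -0.66 to 0.00). All 3 differences were under 2-fold, in a class where 8.68% of 6395 genes were called lower. The sub-cluster H2-Oa-Neurl3 made up 92 of the 143 mature cells of the MYC library and 59 of the 556 of the control, whereas Fcer2a-Cr2 held 19 and 323. Within Fcer2a-Cr2, Ebf1 was at 879 and 837 CPM and Pax5 at 466 and 266 CPM, and within H2-Oa-Neurl3 Ebf1 was at 806 and 638 CPM and Pax5 at 387 and 270 CPM.

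In plasma-like cells, where Vpreb3 was low, it was at 14.9 CPM in 249 control cells and 29.1 CPM in 85 cells of the MYC library (0.97, 0.43 to 1.5), and Ebf1 at 12.1 and 2.80 CPM (-2.11, -3.79 to -0.81). Of the 2 genes with enough UMIs in that class, 1 was called lower and 0 higher, where 6% of 6353 genes were lower and 6.83% higher. In the Jchain-Derl3 sub-cluster of the class, Vpreb3 was just past 2-fold, at 15.5 and 33.6 CPM (1.12, 0.55 to 1.68).

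Dntt outside the B lineage differed by class. In stem or multipotent progenitor-like cells it had 396 UMIs in 28 of 190 control cells (92.7 CPM) and 32 UMIs in 10 of 175 cells of the MYC library (10.1 CPM), a log2 ratio of -3.19 (-3.76 to -2.67). Without the richest cells, of 82 and 15 UMIs, the levels were 73.9 and 5.40 CPM (-3.78). Il7r in the same class had 61 and 2 UMIs (-4.49, -7.57 to -2.58), so 2 of the 3 genes with enough UMIs there were called lower, where 2.25% of 9201 genes were lower and 1.04% higher. Flt3, the receptor tyrosine kinase of lymphoid-primed multipotent progenitors, was at 82.1 CPM in control cells of the class against 37.0 CPM, and Mecom, a stem cell transcription factor, at 62.0 and 57.6 CPM. The class had a median depth of 20852.5 UMIs in control and 14385 in MYC library cells. Its share of cells with a Dntt UMI was 14.7% and 5.71%, or 8.47% and 1.17% after thinning to 2000 UMIs. Fewer Dntt-bearing cells and less Dntt per cell were not tested apart.

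Plasmacytoid dendritic-like cells gave another picture. Dntt was at 113 CPM in the control's 220 cells and 142 CPM in the 42 of the MYC library (0.34, -0.15 to 0.79), and Il7r at 225 and 209 CPM (-0.11, -0.49 to 0.26). Dntt was found in 50% of the control's cells and 45.2% of the MYC library's, and Il7r in 72.3% and 76.2%, at median depths of 8230.5 and 8514 UMIs. After thinning to 2000 UMIs these shares were 17.1% and 26.2% for Dntt and 34.7% and 31.0% for Il7r, against 0% to 0.475% in erythroid-like cells. Siglech, a receptor that marks these cells, had a UMI in every cell of both. Neither gene was called in the class, where 6.83% of 4878 genes were lower and 5.92% higher.

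Il7r was the member with the widest use. T or NK-like cells had it at 174 CPM against 139 CPM in the MYC library (-0.32, -0.63 to -0.03), with 0 of 1 genes called where 3.83% of 6782 were lower and 1.98% higher. Basophil or mast-like cells had 52.9 and 24.3 CPM (-1.12, -1.73 to -0.54), called lower where 4.59% of 6601 genes were (1.32% were higher). The MYC library further held 628 macrophage-like cells, against 20 in the control, with 389 Il7r UMIs in 193 of them (101 CPM), or 53.3% of all Il7r UMIs of that library. The share of these cells with an Il7r UMI was 30.7%, or 19.8% after thinning, against 0.656% and 0% in erythroid-like cells of the same library, whose median depth was 17338 UMIs against 6119.5. The control's 20 such cells had 1 Il7r UMI. A class that lies almost wholly in 1 library may be a feature of that library, so these levels are not a comparison between genotypes.

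The same macrophage-like cells held 58 Pax5 UMIs in 39 cells (15.1 CPM, 11.5 to 19.5) with only 5 Ebf1 UMIs in 2 cells. Ebf1 made up 7.94% (2.63 to 17.6) of the Ebf1 and Pax5 UMIs there, against 85.3% (79.1 to 90.3) in B progenitor-like and 69.2% (65.2 to 73.0) in mature B-like cells of the same library. Of other B cell genes, chosen after seeing these values, Cd79b had 561 UMIs in these cells, and Cd79a 17, and the complement gene C1qa was found in 79.5% of them.

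**Figure D4:**
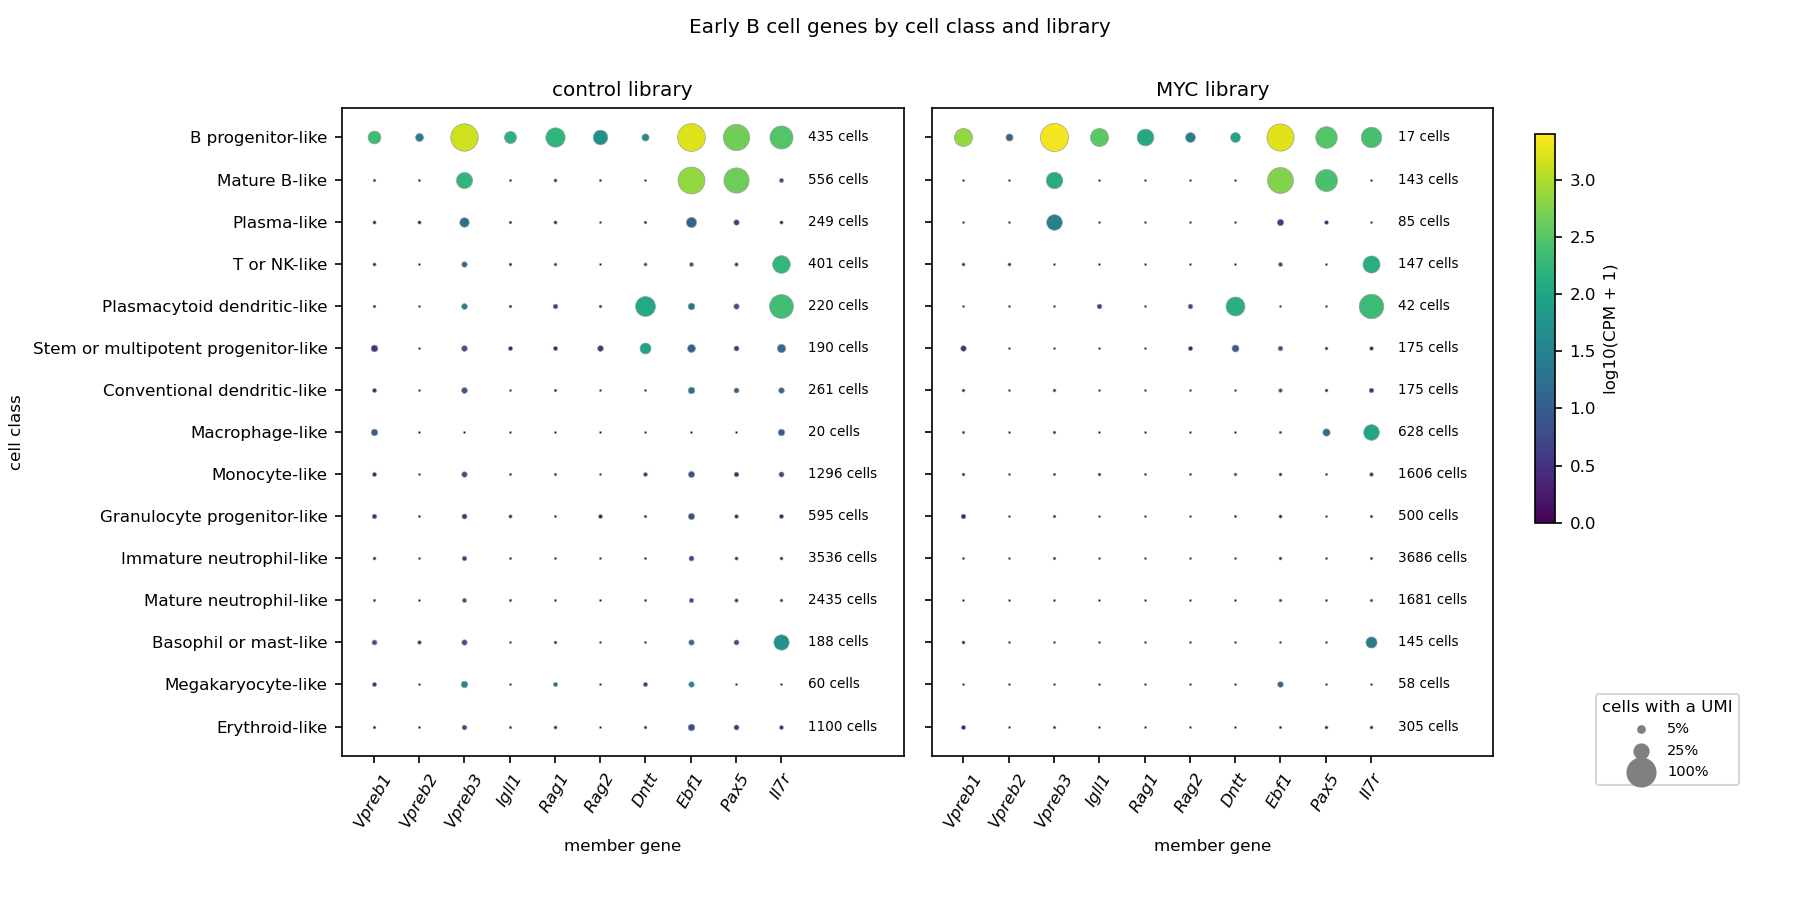
Level (colour, log10 of CPM + 1) and share of cells with a UMI (dot area) of the 10 genes in 15 cell classes of the control (left) and MYC (right) libraries, with the number of cells at the right of each row. Besides the B lineage rows, Dntt and Il7r stand out in plasmacytoid dendritic-like cells and Il7r in T or NK-like cells of both libraries, Dntt in stem or multipotent progenitor-like cells of the control, and Il7r in macrophage-like cells of the MYC library.

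Ebf1 and Vpreb3 were at low levels in monocyte-like, immature neutrophil-like and erythroid-like cells of the control. Ebf1 was at 7.18 CPM in control monocyte-like cells and 0.511 CPM in those of the MYC library, at 4.30 and 0.95 CPM in immature neutrophil-like cells and at 5.36 and 0.157 CPM in erythroid-like cells. Vpreb3 was at 5.10 and 0.157 CPM in monocyte-like cells. The control had 1240 B lineage cells and the MYC library 245, and their part in these low levels was not tested. Vpreb1 in erythroid-like cells, at 0.292 and 0.944 CPM, and Igll1 in monocyte-like cells, at 0.110 and 0.354 CPM, had the higher value in the MYC library, with few UMIs and intervals that include no difference. Dntt in monocyte-like cells was higher there, with 34 UMIs in 17 control cells and 140 UMIs in 9 cells of the MYC library (1.56, 1.01 to 2.15), in a class where 1.8% of 11089 genes were called higher and 4.63% lower. A single cell held 90 of the 140, and without the richest cell of each library the levels were 1.37 and 1.97 CPM (0.52, -0.20 to 1.28).

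Genes that work with the 10 were taken from a list of 53, all with at least 50 UMIs. Over all kept cells 15 were called lower and 1 higher, with a median log2 ratio of -0.51, beside 9.45% of all 14164 genes lower, 2.82% higher and a median of -0.21. The 17 transcription factors of early B cells gave 9 of the 15, with a median of -1.30, led by Bach2 (29.0 to 2.89 CPM, -3.33) and Spib (24.4 to 2.59 CPM, -3.23). Among signal transducers, the pre-B receptor subunit genes Cd79a (80.3 to 15.1 CPM, -2.41) and Cd79b (62.6 to 25.4 CPM, -1.30) and the adaptor gene Blnk (-1.79) were lower, whereas the kinase genes Syk (-0.59) and Btk (-0.28) were not called. Foxo1 (-1.60) and Irf4 (-1.75), factors that act at the pre-B stage, were lower, and Tcf3, which encodes E2A, (-0.92) and Ikzf1 (-0.65) were not called.

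Of 12 genes of recombination and end joining 1 was called lower, a share near the 9.45% of all genes: the ligase gene Lig4 (6.70 to 2.62 CPM, -1.35). Prkdc (-0.91), Dclre1c (-0.51), Hmgb2 (-0.10) and Hmgb1 (0.04), which also serve DNA repair and chromatin in other cells, were not called, nor was Xrcc4 (0.39). In IL-7 signalling, Il2rg (-0.29), Jak1 (-0.45), Jak3 (-0.01), Stat5a (-0.33) and Stat5b (-0.34) were not called. The 1 gene of this group called lower was Socs2 (-2.18), named after its value was seen. The 1 called higher was Socs3 (7.46 to 16.0 CPM, 1.10), a feedback inhibitor of cytokine signalling, and the next highest of all 53 genes were the transcription factor gene Spi1 (0.48) and the cyclin gene Ccnd2 (0.40), neither of them called.

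Within B progenitor-like cells 43 of the 53 had enough UMIs, and 4 were called lower and 0 higher, with a median of -0.25, beside 1.97% of the class's 6585 genes lower, 3.9% higher and a median of -0.14. These were Lig4 (257 UMIs in the control, 1 in the MYC library, -2.57, -7.88 to -0.08), Irf4 (682 and 5 UMIs, -1.66), Bach2 (2209 and 24 UMIs, -1.09) and Hmgb2 (14490 and 162 UMIs, -1.05). Dividing cells made up 2 of 17 cells of the class in the MYC library and 103 of 435 in the control, and their part in the Hmgb2 ratio was not tested. Cd79a (0.31), Blnk (-0.15), Tcf3 (-0.15) and Foxo1 (0.30) were within 2-fold of the control in those cells, and Cd79b was at 1185 against 642 CPM (0.88, 0.58 to 1.18), under 2-fold.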

How the data were processed

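Hematopoietic cells of mouse bone marrow were profiled with the 10x Chromium Single Cell 3′ kit (v2, per the labels' protocols), in 1 library per genotype. The deposited values are UMI counts per gene and barcode, made by the authors; per the file headers Cell Ranger 6.0.0 was used, and the submitters' processing notes name GRCm38 and mm10 as builds, and Seurat without its settings. The members and lists were chosen with earlier results of these data known. The named genes are the 10 members, the 3 most similar genes of each by profile, and, of the related list, 20 set genes and the 3 highest and 3 lowest ratios.

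Barcodes with at least 500 UMIs, 200 genes and under 10% mitochondrial UMIs were kept. Scrublet's doublets, 558 control cells (3.61%) and 356 of the MYC library (2.76%), were removed; its automatic threshold called 0 in the MYC library, so the control's was used for both, a choice made after seeing the data. Cells were clustered with scanpy 1.11.5 (2000 variable genes without the members, 30 components, 15 neighbours, Leiden resolution 1) and named from markers that exclude the members. Clusters of low depth (median under 0.2 of their library's, set after seeing the data) stayed unnamed. So did clusters whose leading genes did not favour their best-scoring class. Together they held 3361 control cells and 3147 of the MYC library, which count only among all kept cells. B lineage cells were clustered again and are called by leading genes. Some genes and 1 sub-cluster are not reported here.

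UMIs were summed per class and library. Intervals are exact Poisson (levels), exact binomial (shares), Newcombe (differences of shares) or exact conditional binomial (ratios), computed with scipy 1.17.1, and cover counting error only. The ratio and interval step was checked on simulated data. GENCODE vM21 matched 99.6% of feature identifiers. Promoter windows are from RefSeq, and all 10 members matched.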

Additional observations from a re-analysis of the deposited data

Results flagged for a closer look

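Differences between the libraries that ran one way in one cell class and another way in another were not tested as such, since each genotype has 1 library. Dntt had a log2 ratio, MYC library over control, of 1.56 in monocyte-like cells and -3.19 in stem or multipotent progenitor-like cells. The first rests on 1 cell with 90 of 140 UMIs. Il7r had a log2 ratio of 3.53 (1.04 to 8.83) in macrophage-like cells, from 1 control UMI in 20 cells, against -1.12 in basophil or mast-like cells and -4.49 in stem or multipotent progenitor-like cells, where the MYC library had 2 UMIs.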

How the results depend on the processing

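No paired analysis was possible because each group has 1 library. All 10 genes were called lower over all kept cells under each of the 9 alternatives run, and their 70 alternative log2 ratios all lay at or below -1. Within B progenitor-like cells, 93 of 99 alternative ratios stayed within the counting interval of the main result and 6 moved. Those intervals are wide at 17 cells, so staying within them shows little. Rag2 stayed within at -2.63, where it was newly called lower. At Leiden resolution 2 the share difference and the Ebf1 and Pax5 ratios equalled those of the main setting. The B progenitor-like share differed by -1.91 percentage points with a mitochondrial limit of 5% and by -3.11 with at least 1000 UMIs and 500 genes. In that class 1 of the 10 genes was called lower with means over cells, and 2 when each cell was classified by its own markers; 1 was called higher in dividing cells at the 2% threshold, and 1 to 3 were called lower there over the alternatives. Of the related genes, 2 were called lower there with called doublets kept and 7 with the 10 genes allowed among the variable genes. The causes were not tested. Leaving out the richest cell of each library was chosen after seeing the data. Depth limits this class: at 17 cells and 83540 UMIs in the MYC library, genes under about 25 CPM there rest on 2 UMIs or fewer.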
